A study of Mus musculus with 6 samples.

Results

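A set of 7 globin genes that mouse embryos and adults use to build hemoglobin were examined in RNA-seq of E9.5 hearts. They were the embryonic β-like genes Hbb-y and Hbb-bh1, the embryonic α-like gene Hba-x, the adult α genes Hba-a1 and Hba-a2, and the adult β genes Hbb-bs and Hbb-bt. These 7 genes were chosen by name, for the stage at which their hemoglobins are made, from 54356 genes with transcripts in the data, and all 7 had enough counts to be tested, as had 16048 genes in all. Hearts came from C57BL/6 embryos, 3 libraries labelled as control littermates and 3 as FlncgKO, in which crossing of Flnc fl/fl with Sox2Cre mice deleted Flnc, the gene of the actin-binding protein filamin C. Sox2Cre is active in the epiblast, so that the heart, the vessels and the blood of a FlncgKO embryo all descend from cells that lost the gene. The labels give the controls no allele, and neither the labels nor the Methods say how many hearts were in a library. The Methods also speak of isolated ventricles, whereas the labels name the whole heart.

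Hemoglobin is a tetramer that joins a pair of α-like with a pair of β-like chains, each holding a heme. The first red cells, primitive erythroid cells, arise in the yolk sac and enter the circulation when the heart begins to beat. They make embryonic β-like chains from Hbb-bh1 and Hbb-y together with the embryonic ζ chain from Hba-x, and adult α chains beside them, whereas the definitive red cells that follow depend on the adult β genes. The chambers and vessels of an embryonic heart hold such circulating cells. In bulk samples, fewer or more red cells cannot be told apart from less or more globin RNA per red cell.

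The libraries held 19208859 to 23123255 estimated counts. Flnc, the targeted gene, stood at 844, 623 and 746 CPM (a gene's share of the counts, scaled by edgeR's TMM factors) in control replicates 1, 2 and 3 and at 127, 111 and 240 CPM in FlncgKO replicates 1, 2 and 3. The groups did not overlap, with a log2 fold change of -2.21 (SE 0.35) and an edgeR adjusted p of 0.0656, which missed the threshold of 0.05, whereas DESeq2 called it (-2.22, SE 0.38, adjusted p = 9.99e-07). Cardiomyocyte markers were abundant in every library, with a summed level of 37787 to 42596 CPM over 11 genes in controls and 34264 to 40376 CPM in FlncgKO hearts. Summed over Ddx3y, Uty, Eif2s3y and Kdm5d, Y-linked RNA stood at 117 to 140 CPM in the controls and at 80.7, 3.88 and 4.28 CPM in FlncgKO replicates 1, 2 and 3, so that Y-linked RNA moved with genotype. In an edgeR fit with this level as a covariate, 0 of all genes passed, the 7 globin genes included. An unadjusted p under 0.05 was found for 1297 of all genes and 0 of the 7. As the covariate moved with genotype, this fit separates them poorly, and the SE of Hbb-y rose from 0.48 to 0.81. Beyond that, the part of Y-linked RNA in the globin values was not tested.

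The β-like genes lie in 1 cluster on chromosome 7 and the α-like genes in another on chromosome 11 (GRCm38, GENCODE M21 annotation). On the minus strand of chromosome 7, Hbb-y spans 103851749 to 103853216, Hbb-bh1 103841637 to 103843164, Hbb-bs 103826534 to 103828096 and Hbb-bt 103812524 to 103813996. On the plus strand of chromosome 11, Hba-x spans 32276400 to 32278116, Hba-a1 32283511 to 32284465 and Hba-a2 32296489 to 32297298. In each cluster, embryonic genes precede adult genes in the direction of transcription, and the main coding transcript of each gene has 3 exons. How well reads can be told apart between the genes is seen in their first 90 coding bases, taken from the GENCODE M21 transcripts and printed 5′ to 3′. Capitals mark bases that differ from the adult gene of the same cluster, Hbb-bs for the β-like genes and Hba-a1 for Hba-x.
Hbb-bs coding start: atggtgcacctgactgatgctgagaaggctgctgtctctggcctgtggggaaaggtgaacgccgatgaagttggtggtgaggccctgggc
Hbb-y coding start: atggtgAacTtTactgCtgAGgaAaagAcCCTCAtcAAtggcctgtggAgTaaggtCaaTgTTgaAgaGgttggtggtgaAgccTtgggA
Hbb-bh1 coding start: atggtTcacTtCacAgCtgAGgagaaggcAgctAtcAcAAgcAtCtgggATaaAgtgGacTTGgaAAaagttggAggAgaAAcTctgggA
Hba-a1 coding start: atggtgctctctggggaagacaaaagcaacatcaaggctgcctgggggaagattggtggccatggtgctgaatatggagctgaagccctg
Hba-x coding start: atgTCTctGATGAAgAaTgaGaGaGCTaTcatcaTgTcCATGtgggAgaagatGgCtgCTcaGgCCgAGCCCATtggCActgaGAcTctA

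Over these 90 bases Hbb-y differed from Hbb-bs at 26 positions, Hbb-bh1 at 29, and Hba-x from Hba-a1 at 44, while Hbb-bt was identical to Hbb-bs and Hba-a2 to Hba-a1. Over the whole reading frame, Hbb-y was 74.3% and Hbb-bh1 74.1% identical to Hbb-bs, Hbb-y and Hbb-bh1 were 76.4% identical to each other, and Hba-x was 62.0% identical to Hba-a1. No stretch of 31 bases was shared between an embryonic globin transcript and any other of these genes, so reads of the embryonic genes could be assigned without such ties. The adult copies differed in their reading frames at 1 of 444 bases for Hbb-bs against Hbb-bt and at 1 of 429 for Hba-a1 against Hba-a2. Of the 31-base stretches of Hbb-bs, 66.9% were also in Hbb-bt, and of those of Hba-a1, 71.3% were also in Hba-a2. The split of counts within each adult pair is therefore uncertain, and sums over a pair rest on firmer ground than its members.

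Promoters are shown because the genes of a cluster are read from separate start sites that share short elements. The 120 bases before the RefSeq start of 5 of the genes are printed 5′ to 3′ on the gene's strand (RefSeq, GRCm38.p6). For all 5 this start lies inside the longer GENCODE span of the gene, and for Hbb-bs, Hba-x and Hba-a1 so do all the printed bases. Capitals mark matches on either strand to 6 motifs. These were CACCC for the box bound by Krüppel-like factors, CCAAT for the box of that name, AGATAA for a GATA site with its variant TGATAA, and ATATAA for a TATA-like element with its variant CATAAA.
Hbb-y promoter, chr7:103853208-103853327, minus strand: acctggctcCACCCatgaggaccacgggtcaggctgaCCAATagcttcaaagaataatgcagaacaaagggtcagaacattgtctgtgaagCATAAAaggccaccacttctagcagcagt
Hbb-bs promoter, chr7:103827929-103828048, minus strand: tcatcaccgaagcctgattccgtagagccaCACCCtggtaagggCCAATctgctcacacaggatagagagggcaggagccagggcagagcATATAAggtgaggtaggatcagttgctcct
Hbb-bt promoter, chr7:103813924-103814043, minus strand: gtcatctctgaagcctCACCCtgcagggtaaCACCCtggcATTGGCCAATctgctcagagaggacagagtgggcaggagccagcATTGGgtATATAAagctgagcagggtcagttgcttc
Hba-x promoter, chr11:32276480-32276599, plus strand: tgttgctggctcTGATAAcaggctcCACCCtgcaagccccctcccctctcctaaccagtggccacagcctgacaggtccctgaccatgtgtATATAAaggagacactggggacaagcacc
Hba-a1 promoter, chr11:32283552-32283671, plus strand: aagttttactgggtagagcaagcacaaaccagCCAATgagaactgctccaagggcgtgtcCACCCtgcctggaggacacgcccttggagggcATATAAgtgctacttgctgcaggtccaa

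A CACCC match lay in each of these promoters, against 31.7% of 32851 RefSeq promoters of the same length, and a CCAAT match in all but that of Hba-x, against 21.3%. ATATAA was found 23 to 30 bases before the start of Hbb-bs, Hbb-bt, Hba-x and Hba-a1 (4.47% of all promoters), and CATAAA 29 to 24 bases before that of Hbb-y (5.16%). The Hbb-bt promoter held 2 CACCC and 3 CCAAT matches, with a reverse and a forward CCAAT match side by side, where that of Hbb-bs held 1 of each. TGATAA occurred in the Hba-x promoter (3.55% of all) and AGATAA in none of the 5 (4.36% of all). The Hba-a2 promoter, not printed, shared an identical run of 247 bases with that of Hba-a1. These matches are letters in a window and no measure of binding.

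Levels between genes were compared in the authors' TPM, a share of transcripts after division of counts by effective length. The most abundant globin RNA in every library was Hbb-y, which encodes the embryonic εy chain. It stood at 3935, 4056 and 10040 TPM in control replicates 1, 2 and 3 and at 10214, 10197 and 15651 TPM in FlncgKO replicates 1, 2 and 3. By TPM it ranked 16, 17 and 7 among all detected genes of the controls and 4, 4 and 2 among those of the FlncgKO hearts. Hbb-bh1, the embryonic β-like gene that primitive red cells use earliest, was at 3543, 3111 and 10034 TPM in controls and at 9823, 8564 and 12234 TPM in FlncgKO hearts. Hba-x, the gene of the embryonic ζ chain, was at 2270, 2144 and 6308 TPM in controls and at 6151, 5536 and 8055 TPM in FlncgKO hearts. For all 3 embryonic genes, control replicates 1 and 2 were the lowest libraries and FlncgKO replicate 3 the highest. Control replicate 3 lay close to or above FlncgKO replicates 1 and 2, so that the groups overlapped for Hbb-bh1 and Hba-x in TPM, whereas for Hbb-y it fell just under them.

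The adult α genes were expressed within the same order of magnitude as the embryonic genes. Hba-a2 was at 1277, 1243 and 4293 TPM in controls and at 3358, 3033 and 6086 TPM in FlncgKO hearts. Hba-a1 was at 881, 847 and 2743 TPM in controls and at 2283, 1922 and 3831 TPM in FlncgKO hearts. Both had the same low pair of controls and the same high FlncgKO replicate 3, with control replicate 3 above FlncgKO replicates 1 and 2. In counts the adult α genes were nearly level, Hba-a2 taking 48.0% to 50.7% of their sum, and the higher TPM of Hba-a2 goes with its shorter annotated transcript, 554 against 699 bases. A transcript of Hba-a1 with a retained intron received 0.795% to 2.22% of that gene's estimated counts.

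The adult β genes were the lowest of the 7 and by far the most variable. Hbb-bs was at 151, 41.5 and 1261 TPM in control replicates 1, 2 and 3 and at 384, 94.0 and 1733 TPM in FlncgKO replicates 1, 2 and 3. Hbb-bt was at 29.8, 14.7 and 206 TPM in controls and at 85.3, 37.1 and 290 TPM in FlncgKO hearts. In each group replicate 3 was the highest and replicate 2 the lowest for both genes. From the lowest to the highest library Hbb-bs ranged 41.8-fold and Hbb-bt 19.8-fold, against 3.76-fold to 4.90-fold for the other 5 genes. Within the controls alone, Hbb-bs ranged 30.4-fold, from 195 to 5894 estimated counts, and within FlncgKO hearts 18.4-fold, from 464 to 7657. Hbb-bt made up 16.6% to 32.4% of the adult β counts, a share that rests on how reads common to both copies were split.

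**Figure D1:**
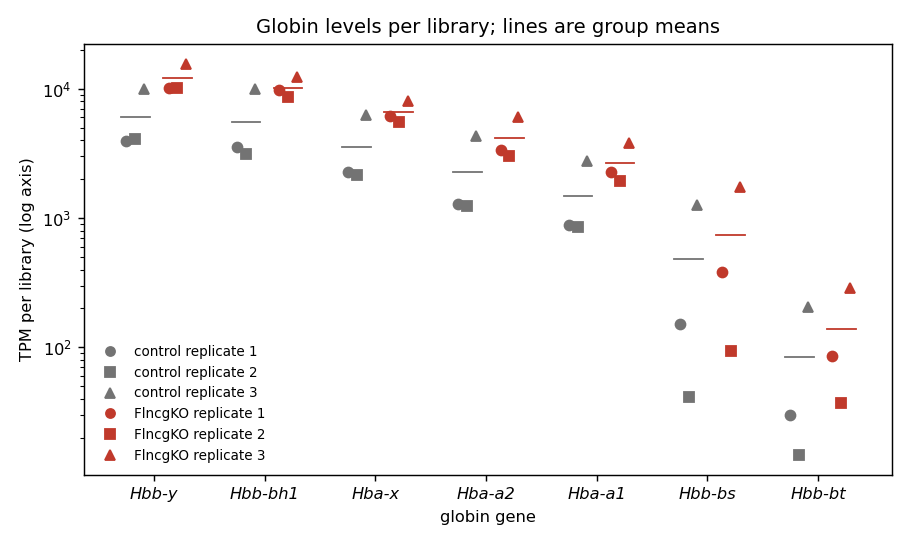
Level of each of the 7 globin genes in TPM (log axis) in the 3 control (grey) and 3 FlncgKO (red) libraries, with the marker shape giving the replicate number and the horizontal line the group mean. Control replicate 3 lies above the other controls for every gene, among or close to the FlncgKO libraries for the embryonic and adult α genes and near FlncgKO replicate 3 for the adult β genes, and the adult β genes Hbb-bs and Hbb-bt spread 41.8-fold and 19.8-fold over the 6 libraries.

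By TPM the order of the levels was identical in all 6 libraries, from Hbb-y through Hbb-bh1, Hba-x, Hba-a2, Hba-a1 and Hbb-bs to Hbb-bt. In counts, which are not divided by length, the order varied. Hbb-bh1 exceeded Hbb-y in control replicate 3, at 50639 against 45342 counts. In FlncgKO replicate 3, Hba-x exceeded Hbb-bh1, at 59173 against 57887 counts. Neighbouring genes differed in log2 TPM by 0.63 ± 0.05 (SD, n = 6) between Hbb-bh1 and Hba-x, by 0.72 ± 0.19 between Hba-x and Hba-a2 and by 0.60 ± 0.06 between Hba-a2 and Hba-a1. Larger gaps, with a larger spread, separated Hba-a1 from Hbb-bs at 2.68 ± 1.44 and Hbb-bs from Hbb-bt at 2.09 ± 0.55. Hbb-y and Hbb-bh1 were not set apart in every library, their difference of 0.20 ± 0.16 shrinking to 0.00084 in control replicate 3.

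Whether loss of filamin C changed globin RNA was tested per gene with edgeR's quasi-likelihood test and Benjamini-Hochberg adjustment over all genes. Of the 7 globin genes, 0 passed an adjusted p of 0.05, where 1.31% of all genes passed in either direction and 1.06% as higher in FlncgKO hearts. An unadjusted p under 0.05 was found for 0 of the 7 and for 3555 of the 16048 genes tested. All 7 fold changes were positive, with a median log2 value of 0.87 beside 0.01 for all genes tested. On the CPM scale 0 of the 7 had groups that did not overlap, against 29.7% of all genes, and 0 had every FlncgKO library above every control, against 15.7%. DESeq2, the authors' tool, also called 0 of the 7 where it called 6.19% of all genes higher. The p-values measure the spread between these libraries only, which may be technical.

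Hbb-y had the largest log2 fold change, 1.00 (SE 0.48, adjusted p = 0.313), with means of 1309 ± 764 CPM in controls and 2625 ± 744 CPM in FlncgKO hearts (SD, n = 3 each). Hbb-bh1, at 1354 ± 947 against 2473 ± 510 CPM, had a log2 fold change of 0.87 (SE 0.55, adjusted p = 0.431 from edgeR). Hba-x was at 1333 ± 887 against 2447 ± 573 CPM, a log2 fold change of 0.88 (SE 0.53, adjusted p = 0.409 from edgeR). The values of the 3 embryonic genes thus lay close together. The adult α genes gave 0.87 (SE 0.63) for Hba-a1 and 0.90 (SE 0.67) for Hba-a2, with adjusted p-values of 0.493 and 0.503 from edgeR. With the near-identical copies summed before the fit, the adult α pair gave 0.89 (SE 0.65). For the adult β genes the log2 fold change was smaller than its error, at 0.63 (SE 1.71) for Hbb-bs and 0.73 (SE 1.36) for Hbb-bt, with adjusted p-values of 0.869 and 0.801 from edgeR.

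The calls depended on 1 library, a control. Without control replicate 3, the log2 fold changes from edgeR were 1.59 (SE 0.25) for Hbb-y, 1.61 (SE 0.18) for Hbb-bh1 and 1.57 (SE 0.20) for Hba-x, and 1.65 (SE 0.38) and 1.74 (SE 0.41) for Hba-a1 and Hba-a2. Hbb-bh1 then passed, with an adjusted p of 0.0447, and was the 1 globin gene of 7 called, beside 0.599% of all genes called higher in that fit. The unadjusted p was under 0.05 for the 5 embryonic and adult α genes, and for 3264 of the 16516 genes tested in that fit. DESeq2 without the same control called these 5 genes, where it called 5.92% of all genes higher, with adjusted p-values from 4.78e-21 for Hbb-bh1 to 0.00616 for Hba-a2. Hbb-bs and Hbb-bt were called by neither tool. Their log2 fold changes were 2.96 (SE 1.72) and 2.63 (SE 1.22) without control replicate 3 but -1.02 (SE 1.89) and -0.47 without FlncgKO replicate 3, and so took either sign with the choice of library.

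**Figure D2:**
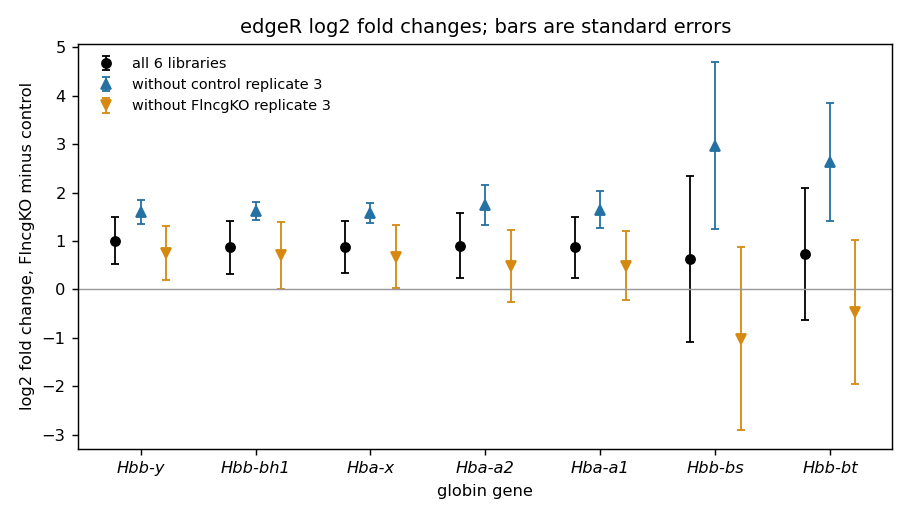
Log2 fold change of each globin gene, FlncgKO minus control, from edgeR with all 6 libraries (black), without control replicate 3 (blue) and without FlncgKO replicate 3 (orange), with bars of 1 standard error. The embryonic and adult α genes stay positive in the 3 fits and lie between 1.57 and 1.74 without control replicate 3, while Hbb-bs moves from 2.96 to -1.02 and Hbb-bt from 2.63 to -0.47.

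The balance of embryonic and adult globin was compared next, since a ratio of globin genes within a library cancels its total of globin RNA. Counts of Hbb-y and Hbb-bh1 together exceeded those of Hbb-bs and Hbb-bt 40.2-fold, 123-fold and 13.6-fold in control replicates 1, 2 and 3 and 41.8-fold, 138-fold and 13.5-fold in FlncgKO replicates 1, 2 and 3. Adult genes accordingly gave 2.43% (95% Wilson interval 2.27% to 2.59%), 0.804% (0.715% to 0.903%) and 6.86% (6.71% to 7.01%) of the β-like counts in controls. In FlncgKO hearts they gave 2.34% (2.25% to 2.43%), 0.721% (0.669% to 0.777%) and 6.88% (6.75% to 7.02%). The libraries of each group thus fell at 3 separate levels, and each level of the controls had a counterpart among the FlncgKO hearts. These intervals cover counting error only. The ratio ranged 9.09-fold within controls and 10.2-fold within FlncgKO hearts, while the group means of its log2 differed by 0.07 (SE 1.33, 2-sided exact permutation p = 0.8).

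The α-like ratio spread less, 1.38-fold over all 6 libraries. Hba-x exceeded the adult α genes 1.65-fold, 1.68-fold and 1.47-fold in counts of the controls and 1.72-fold, 1.80-fold and 1.31-fold in FlncgKO hearts, and replicate 3 was the lowest in each group. The log2 means differed by -0.0038 (SE 0.16, exact permutation p = 1). For all embryonic over all adult globin genes the ratios were 4.62, 4.98 and 3.60 in controls and 4.82, 5.44 and 3.37 in FlncgKO hearts (log2 difference 0.03, SE 0.25, exact permutation p = 0.9). Per length, in TPM, the ratio of Hba-x to the adult α genes was near 1, from 0.812 to 1.12 over the 6 libraries, and that of embryonic to adult β-like genes ran from 13.7 to 143.

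Hbb-y and Hbb-bh1, whose use shifts as primitive red cells mature, were close to parity in counts. Their ratio was 1.00, 1.15 and 0.895 in control replicates 1, 2 and 3 and 0.931, 1.08 and 1.15 in FlncgKO replicates 1, 2 and 3 (log2 difference 0.05, SE 0.14, exact permutation p = 0.7). The α-like genes together received 0.769, 0.774 and 0.795 counts per count of the β-like genes in controls and 0.760, 0.733 and 0.780 in FlncgKO hearts (log2 difference -0.04, SE 0.03, exact permutation p = 0.3). This was the steadiest of the ratios, ranging 1.09-fold over the 6 libraries. With 3 libraries against 3, an exact permutation test cannot give a p below 0.1, and after adjustment over the 7 single-value comparisons made the values were 0.7 or 1.

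In total the 7 genes took 0.310%, 0.297% and 0.906% of all counts in controls and 0.821%, 0.715% and 1.24% in FlncgKO hearts. Their summed level was 3053, 2983 and 8937 CPM in controls and 8329, 7282 and 12430 CPM in FlncgKO hearts, a log2 difference of 1.07 (SE 0.57, exact permutation p = 0.3). Again control replicate 3 lay above FlncgKO replicates 1 and 2. Set against the summed counts of other genes of the red cell membrane, globin counts were 8.63, 8.88 and 12.2 times as many in controls and 10.2, 10.9 and 13.2 times in FlncgKO hearts (log2 difference 0.22, SE 0.19, exact permutation p = 0.3). This log2 difference was 0.63 with heme and iron genes as the reference, 0.38 without control replicate 3, 0.13 without control replicate 1 and 0.11 without FlncgKO replicate 3. Here too control replicate 3 lay inside the range of the FlncgKO hearts.

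**Figure D3:**
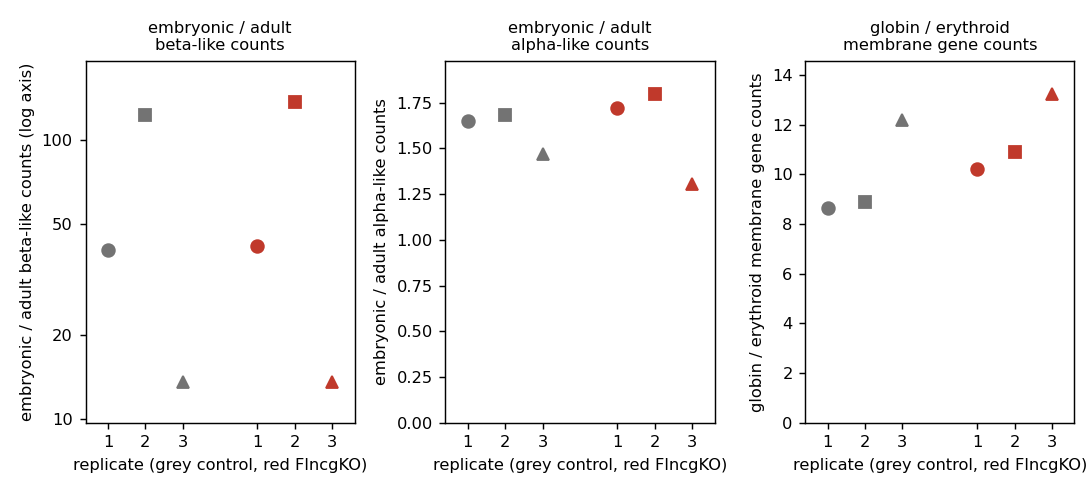
Ratios of estimated counts in each of the 3 control (grey) and 3 FlncgKO (red) libraries, by replicate number: embryonic to adult β-like genes (log axis), embryonic to adult α-like genes, and the 7 globin genes to 15 red cell membrane genes. The β-like ratio takes 3 levels in each group, from 13.5 to 138, the α-like ratio stays between 1.31 and 1.80, and the globin to membrane ratio runs from 8.63 to 13.2.

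Other genes that red cells use were read from lists. Of 14 tested genes of the red cell membrane and its skeleton, all had positive fold changes, with a median log2 value of 0.82. As higher, 1 passed in edgeR (1.06% of all genes) and 2 in DESeq2 (6.19% of all genes), and 4 passed in edgeR without control replicate 3 (0.599% of all genes). The gene called with all libraries was Trim58, a ubiquitin ligase of maturing red cells, at 0.320, 0.193 and 0.531 CPM in controls and 2.55, 1.76 and 1.46 CPM in FlncgKO hearts (log2 fold change 2.45, SE 0.40, adjusted p = 0.0411 from edgeR). At these control levels it passed the filter on low counts only through FlncgKO hearts. Slc4a1, the band 3 anion exchanger and the most abundant of the list in FlncgKO replicate 3, was at 75.2 to 223 CPM in controls and 226, 177 and 293 CPM in FlncgKO hearts (adjusted p = 0.414 from edgeR). As for the embryonic and adult α globin genes, 2 controls were low and control replicate 3 lay near FlncgKO replicate 1. The summed level of the list was 336 to 734 CPM in controls and 668 to 939 CPM in FlncgKO hearts, and 4 of the 14 genes had groups that did not overlap, a share near the 29.7% of all genes.

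Of 17 tested genes of heme synthesis and iron supply, 15 had positive fold changes, the median was 0.31 and 1 passed as higher (1.06% of all genes), or 3 without control replicate 3 (0.599% of all genes). Tfrc, the transferrin receptor through which cells take up iron, was at 325, 323 and 338 CPM in controls and 445, 469 and 424 CPM in FlncgKO hearts (log2 fold change 0.44, SE 0.05, adjusted p = 0.0310 from edgeR). Its controls lay close together, replicate 3 included, unlike those of the globin genes. Alas2, the first enzyme of heme synthesis in red cells, was at 33.7, 29.2 and 102 CPM in controls and 88.4, 75.3 and 139 CPM in FlncgKO hearts, with a log2 fold change of 0.87 (SE 0.61, adjusted p = 0.478 from edgeR).

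Of 17 genes that regulate globin transcription, 0 passed in edgeR. An unadjusted p under 0.05 was found for 7 of them, and for 3555 of the 16048 genes tested. DESeq2 called 5 higher, where it called 6.19% of all genes higher, and 2 lower, where it called 360 of 15953 lower. The median log2 fold change of the 17 was 0.18. The groups did not overlap for 8 of them, against 29.7% of all genes, with FlncgKO hearts above controls for 6, against 15.7%. Gata1, the master regulator of red cells and megakaryocytes, was at 6.82, 4.10 and 15.0 CPM in controls and 30.7, 18.4 and 16.7 CPM in FlncgKO hearts (log2 fold change 1.35, SE 0.55, adjusted p = 0.242 from edgeR). Klf1, which binds CACCC boxes and activates the adult β genes, was at 8.05, 6.23 and 18.1 CPM in controls and 17.1, 12.7 and 18.9 CPM in FlncgKO hearts (adjusted p = 0.488 from edgeR). In the 2 genes replicate 3 was the highest control. For Klf1 it lay above FlncgKO replicates 1 and 2. For Gata1 it lay below every FlncgKO library, and FlncgKO replicate 3 was the lowest of its group, unlike for the globin genes. The partners Tal1 and Lmo2 had log2 fold changes of 0.95 (SE 0.23) and 0.80 (SE 0.17), and the corepressor gene Cbfa2t3 one of -0.48 (SE 0.10), with adjusted p-values of 0.101, 0.0675 and 0.0636 from edgeR. Bcl11a and Sox6, which silence embryonic β-like genes, and Myb, which definitive blood cells need, gave -0.19 (SE 0.19), 0.18 (SE 0.19) and -0.16 (SE 0.44). Klf2 and Gfi1b gave -0.57 (SE 0.16) and 1.86 (SE 0.51), with adjusted p-values of 0.0976 and 0.118 from edgeR. The regulators and Slc4a1 were named after their values had been seen.

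Among 7 other genes with a globin fold, 2 had enough counts to be tested. Hbq1b, an α-like θ globin gene, received 18, 13 and 40 counts in controls and 49, 49 and 51 in FlncgKO hearts, without overlap (log2 fold change 1.05, SE 0.41, adjusted p = 0.189 from edgeR). Mb, the gene of myoglobin, had a log2 fold change of 0.40 (SE 0.25, adjusted p = 0.394 from edgeR). Hbb-bh2 received 3, 2 and 3 counts in controls and 13, 6 and 9 in FlncgKO hearts and was too low to test.

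Markers of other cells were read beside the globin genes. Of 15 platelet and megakaryocyte genes listed, 14 were tested. All 14 were higher in every FlncgKO library than in every control, against 15.7% of all genes, with a median log2 fold change of 4.22. Some, such as Gp9 at 0.0483 to 0.274 CPM in controls, passed the filter on low counts only through FlncgKO hearts, which favours this outcome. Others, such as Itgb3 at 51.3 to 77.6 CPM in controls, did not depend on it. edgeR called 0 of the 14 at the adjusted threshold, and DESeq2 called all 14, against 6.19% of all genes. The unadjusted p from edgeR was under 0.05 for the 14, and for 3555 of the 16048 genes tested. The summed level of the platelet list was 74.7 to 111 CPM in controls and 1247, 780 and 242 CPM in FlncgKO replicates 1, 2 and 3. FlncgKO replicate 3, the highest for globin, was thus the lowest of its group for platelet genes, and control replicate 3 lay with its group. Of 16 leukocyte genes listed, 7 were tested. Of these, 3 passed as higher, Vav1, Coro1a and Itgb2, against 1.06% of all genes, and none of them without control replicate 3. Vav1, at 0.434 to 0.531 CPM in controls, entered the test through FlncgKO hearts, so that the share among tested genes favours higher ones. Mrc1 (-0.88, SE 0.25) was lower in every FlncgKO library but did not pass, and Csf1r and Lyz2 overlapped between groups. The list summed to 12.5 to 26.9 CPM in controls and 34.2 to 48.6 CPM in FlncgKO hearts. Of 4 blood progenitor genes, Cd34 passed as higher (log2 fold change 0.73, adjusted p = 0.0310 from edgeR). Of 12 endothelial genes Emcn did (1.24, adjusted p = 0.0353 from edgeR), each beside 1.06% of all genes. The endothelial list went both ways. DESeq2 called 6 of its genes higher, against 6.19% of all genes, and 2 lower, against 360 of 15953. Npr3 (-0.58) and Tek (-0.40) were below controls in every FlncgKO library without passing in edgeR. Among 9 tested genes of yolk sac and liver endoderm 0 passed in edgeR or DESeq2 and 0 had an unadjusted p under 0.05, with summed levels of 20.3 to 165 CPM in controls and 15.9 to 64.5 CPM in FlncgKO hearts. In no list were any markers at 0 in all libraries, and the part of these cells in the globin values was not tested.

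**Figure D4:**
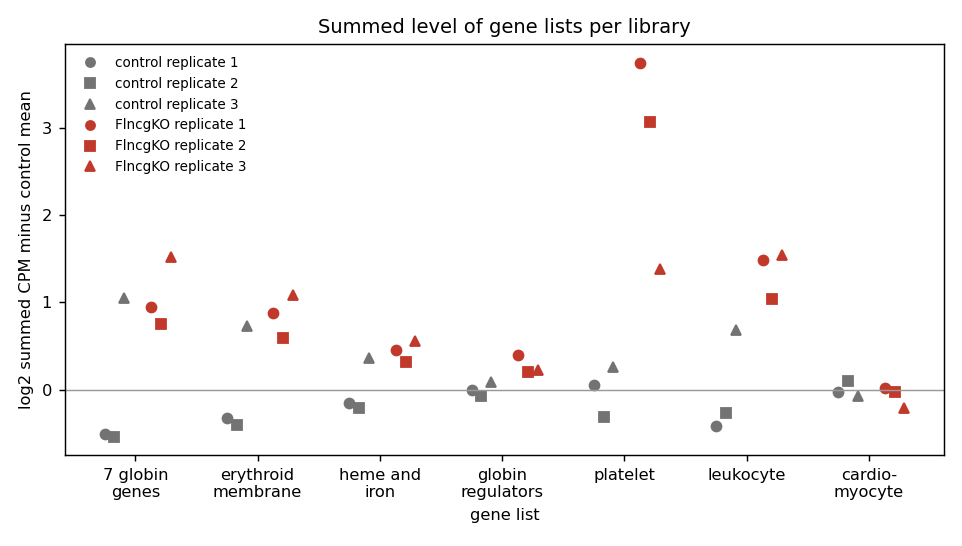
Summed CPM of the 7 globin genes and of 6 gene lists in each library, as log2 difference from the control mean, for 3 control (grey) and 3 FlncgKO (red) libraries, with the marker shape giving the replicate number. Globin genes stand at -0.51, -0.54 and 1.04 in controls and 0.94, 0.75 and 1.52 in FlncgKO hearts, red cell membrane genes at -0.33, -0.40 and 0.73 in controls and 0.88, 0.59 and 1.08 in FlncgKO hearts, platelet genes are at 1.38 to 3.75 in FlncgKO hearts, and cardiomyocyte genes lie near 0 throughout.

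The genes whose profile over the 6 libraries was most like the mean of the 7 globin genes were found by the root mean square difference of log2 CPM values, each centred on its own mean, among 14327 genes of at least 1 CPM. The 8 nearest were Stac2 (0.22), Itpk1 (0.23), Spsb1 (0.26), Esrp2 (0.26), Mlph (0.27), Alas2 (0.27), Tchh (0.30) and Adcy7 (0.30). Among the members themselves, Hba-a2 and Hba-a1 lay nearest to this mean at 0.24 and 0.25, the embryonic genes at 0.37 to 0.42, Hbb-bt at 0.57 and Hbb-bs farthest, at 1.06. Alas2 is the 1 gene of heme synthesis among the 8, and Stac2, Itpk1, Spsb1, Esrp2 and Mlph lay nearer. Its likeness to the mean was close to that of Hba-a1, although Hba-a1 is itself part of that mean.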

How the data were processed

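Data were 3 control and 3 FlncgKO RNA-seq libraries of mouse hearts at E9.5. Per the labels and Methods, the authors made polyadenylated, stranded libraries and assigned reads with salmon (version not given in the sources used here) to GENCODE M22 transcripts (GRCm38.p6), giving the deposited estimated counts, TPM and effective lengths for 140658 transcripts. Reads shared by near-identical transcripts are divided by salmon's model, which limits the split within adult globin pairs. Transcripts were joined to genes through GENCODE M21 by identifier without version, and 0.370% of transcripts, with 0.108% to 0.131% of counts, had no gene and were not used. For each gene, the estimated counts of its transcripts were added and rounded to whole numbers.

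Genes were tested with edgeR 4.0.16 in R 4.3.3 (robust quasi-likelihood test, TMM, filterByExpr with a minimum of 10 counts, Benjamini-Hochberg, threshold 0.05), unpaired, and DESeq2 1.42.0 was an alternative to the authors' DESeq2 1.22.2. Ratios were compared by exact permutation with scipy 1.17.1. The test code was tested on simulated data. The 7 members, the gene lists and the tests were chosen with earlier results of these data known. The genes named are the 7 members, Flnc, list members past the threshold where 5 or fewer pass, otherwise up to 4 with the smallest p, and the 8 genes of at least 1 CPM nearest to the mean globin profile. Other list members were named after their values had been seen, for their roles or to show values that did not pass. Of 18 genes listed for heme and iron, 17 were matched. Each library held 15624 to 16185 genes with at least 10 counts. Libraries of a group differed by more than counting noise (chi-square per degree of freedom 7.85 to 31.9), so each was counted as 1 sample. Alternatives were other scalings, no filter, length offsets, a block for the replicate number, a Y-linked covariate, DESeq2, summed copies, TPM or coding transcripts alone, and leaving out each library.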

Additional observations from a re-analysis of the deposited data

How the results depend on the processing

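The counts of genes past the threshold depended on the setting and on the libraries used. Over all genes the count was 210 in edgeR, 554 without a filter, 76 with offsets for transcript length, 1347 with DESeq2 and 0 with the Y-linked covariate, where 1297 genes had an unadjusted p under 0.05. Leaving out 1 library gave 1 to 1805 genes, with 1 in edgeR without control replicate 1 or control replicate 2 and 1278 without FlncgKO replicate 3, and 664 to 1805 with DESeq2. DESeq2 without each library was chosen after seeing the data. The count of globin genes was 0 in every setting with all libraries, and 0 to 5 of 7 with a library left out, above 0 when it was control replicate 3. The scalings tried moved the median of all genes by less than 0.1 on the log2 scale.

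With the Y-linked covariate the log2 fold change of Hbb-bs was -0.51 and that of Hbb-bt -0.11. With a library left out they ran from -1.03 to 2.96 and from -0.47 to 2.64, while those of the other 5 genes stayed positive. The log2 difference in the embryonic to adult ratio ran from -0.78 to 0.90 for β-like genes, from -0.091 to 0.14 for α-like genes (0.011 in TPM) and from -0.11 to 0.23 for all genes, and that of Hbb-y to Hbb-bh1 from -0.035 to 0.15. The causes of these changes were not tested.

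Equal replicate numbers are not said to mark litters, and for that reason libraries were treated as unpaired. The deviations of equal-numbered libraries from their group means correlated at 0.04, 0.57 and 0.61 for numbers 1, 2 and 3 over 16048 genes. Control replicate 1 correlated best with FlncgKO replicate 2, at 0.19. Deviations from the mean of a small group depend on one another, so these correlations cannot decide whether equal numbers are pairs. With a replicate block, 632 of all genes and 0 of the 7 globin genes passed. All 7 had an unadjusted p under 0.05, as had 3911 of the 16048 genes tested. The log2 fold change under the block was 1.12 (SE 0.17, adjusted p = 0.0544 from edgeR) for Hbb-y and 0.96 (SE 0.21, adjusted p = 0.106) for Hbb-bs.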

Other observations

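The ratio of embryonic to adult β-like counts in the FlncgKO library was 1.04, 1.12 and 0.996 times that of the control with the same number, for numbers 1, 2 and 3, while it ranged 10.2-fold over the 6 libraries. Equal numbers gave 1.05, 1.07 and 0.888 for the α-like ratio, and 2.73, 2.44 and 1.39 for the summed globin level. These quotients were looked at after the values had been seen, and no source says that equal numbers share a litter.

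Genes whose profile was most like that of Hbb-bs, the most variable globin gene, were looked for after the data had been seen, among 14333 genes. The nearest by root mean square difference of centred log2 CPM were Mrgprg (0.19), Pkp3 (0.22), Apobr (0.28), Tgm1 (0.29), Fam83f (0.31), Lgals3 (0.32), Orm1 (0.35) and Il2rb (0.37). Tgm1, a transglutaminase of the outer epidermis, was at 1.51, 0.338 and 21.4 CPM in control replicates 1, 2 and 3 and at 5.68, 1.46 and 25.3 CPM in FlncgKO replicates 1, 2 and 3. Pkp3, a plakophilin of desmosomes in epithelia, was at 0.778, 0.145 and 10.1 CPM in controls and 2.50, 0.441 and 14.5 CPM in FlncgKO hearts. Lgals3, which encodes the lectin galectin-3, was at 3.66, 0.869 and 44.4 CPM in controls and 10.9, 3.88 and 60.4 CPM in FlncgKO hearts. As for Hbb-bs, replicate 3 was the highest and replicate 2 the lowest in each group for all genes named here. Since they were picked for likeness to Hbb-bs over the same libraries, this order follows from the choice and is no separate observation. The source of their RNA was not tested.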
